A study of Mus musculus with 24 samples.

Results

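The genes described here are 9 genes of nucleotide synthesis, taken by name from the 55335 genes of the table: the deoxynucleotide genes Rrm1, Rrm2, Tyms, Tk1 and Dut, the pyrimidine genes Cad and Umps, and the purine genes Ppat and Paics. All 9 had a row and passed the filter on low counts. Their transcripts were measured by RNA sequencing in C57BL/6J mice, in sorted mesenteric lymph node iNKT (invariant natural killer T) cells, which see lipids on CD1d through a nearly invariant T cell receptor. KO FT mice were the offspring of dams given a fecal transplant (FT) from CD1d-knockout donors, and WT FT mice the offspring of dams given an FT from wild-type donors. Within each FT, mice received 2 µg alpha-galactosylceramide (aGC), a glycolipid antigen of iNKT cells, by mouth in 200 µL PBS, or PBS alone, and the cells were taken 24 h later. Females and males were kept apart, which made 8 groups of 3 libraries: KO FT aGC, KO FT PBS, WT FT aGC and WT FT PBS, each in both sexes. The sources used here do not give the age of the mice, the sort gate, the dam, litter or cage, or whether each library of a group is from other mice, so p-values reflect the scatter among libraries, possibly only technical. The donor's genotype cannot be told apart from dam, litter or cage.

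Resting lymphocytes keep small nucleotide pools, and a T cell that prepares to divide makes purines and pyrimidines from amino acids, folate units and ribose phosphate. Ribonucleotide reductase then turns ribonucleotides into the deoxynucleotides that DNA needs, while thymidylate synthase, thymidine kinase and dUTPase keep thymidine nucleotides supplied and uracil out of DNA. In many cell types MYC activates genes of the purine and pyrimidine routes, and E2F factors activate Rrm1, Rrm2, Tyms, Tk1 and Dut towards S phase.

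Library totals were 9764931 to 21349436 estimated counts in the 12 aGC libraries and 10616109 to 37016768 in the 12 PBS libraries. The lowest value of any of the 9 genes in a library was 60 estimated counts, for Tk1 in a KO FT PBS male library, so none of them was near the detection limit. The iNKT label was checked against 11 markers. Trav11, the Vα14 segment of the invariant receptor, Zbtb16, the lineage factor PLZF, and Cd3e were present in each library, at 325 to 880.1, 30.8 to 84.9 and 695 to 1132 CPM, estimated counts scaled to library size. The summed level of the 11 iNKT markers was 6369 to 7470.3 CPM in aGC libraries, against 8315 to 10596 CPM in PBS libraries. Most of that sum was Trac, at 1696 to 3330 CPM, Il2rb and the Cd3 genes, which other T cells can express too. Cd8a and Cd8b1, which most mouse iNKT cells lack, split the groups in another way. Their sum was 494 to 523 and 631 to 639.8 CPM in aGC females of KO FT and WT FT, and 393 to 396 and 854 to 863 CPM in PBS males of KO FT and WT FT. In aGC males and PBS females of either FT it was 14.1 to 19.8 CPM. The summed level of 9 naive T cell markers split in the same way, at 2408 to 2708 CPM in aGC females and 3209 to 3401 CPM in PBS males, and at 1349 to 1519 CPM in aGC males and 1669 to 1821 CPM in PBS females. The 9 B cell markers summed to 454 to 725 CPM in aGC libraries, against 969 to 1079 CPM in PBS libraries. Nearly all of that was Ighm, while Cd79a stayed at 0.368 to 4.43 CPM. The 7 myeloid markers, Lyz2 among them, summed to 8.25 to 69.1 CPM. Results for the 9 genes are therefore also given within sexes and between the groups low in Cd8a. Those of the wider gene lists average the sexes, apart from counts for the regulators.

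The 9 genes lie on 6 mouse chromosomes (build GRCm38, GENCODE M21). Rrm1 is at chr7:102441695-102469771, Rrm2 at chr12:24708241-24714146 and Dut at chr2:125247190-125258608 on the plus strand, and Tyms at chr5:30058202-30073617 and Tk1 at chr11:117815526-117826092 on the minus strand. Cad is at chr5:31054780-31078479 on the plus strand and Umps at chr16:33954782-33967038 on the minus strand. Ppat, at chr5:76913249-76951578 on the minus strand, and Paics, at chr5:76951307-76967509 on the plus strand, are divergent neighbours whose RefSeq start sites lie 276 bases apart, so that the 5′ ends of their transcripts overlap. The libraries do not keep strand, so reads from that overlap cannot be told apart, and 242 of the 31-base words of the Ppat transcripts also occur in Paics. Tk1 is likewise overlapped on the opposite strand by Afmid and Gm20708, and Umps by Gm15829. Words found in other genes made up 16.7% of Paics, 12.8% of Rrm2, 11.4% of Tyms, most often in the pseudogene Tyms-ps, and 5.35% of Rrm1, against 0% of Dut and of Cad.

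Shown first are the promoter windows of the subunit pair of ribonucleotide reductase, whose products act together and whose changes in WT FT mice were of unlike size, and of the divergent pair Ppat and Paics. Each runs from 250 bases before the RefSeq start to 50 after it and is written 5′ to 3′ on the gene's own strand (GRCm38.p6). Capitals mark CCAAT in Rrm1, Rrm2 and Paics, CACGTG in Paics and GCGGGAAA in Ppat.
Rrm1, chr7:102441445-102441744, plus strand: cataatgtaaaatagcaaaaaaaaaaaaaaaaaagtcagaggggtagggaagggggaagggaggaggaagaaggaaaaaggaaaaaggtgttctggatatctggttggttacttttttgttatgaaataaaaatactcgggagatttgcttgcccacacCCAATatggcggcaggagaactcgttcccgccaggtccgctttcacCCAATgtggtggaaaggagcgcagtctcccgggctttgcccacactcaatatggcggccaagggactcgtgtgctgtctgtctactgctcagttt
Rrm2, chr12:24708004-24708303, plus strand: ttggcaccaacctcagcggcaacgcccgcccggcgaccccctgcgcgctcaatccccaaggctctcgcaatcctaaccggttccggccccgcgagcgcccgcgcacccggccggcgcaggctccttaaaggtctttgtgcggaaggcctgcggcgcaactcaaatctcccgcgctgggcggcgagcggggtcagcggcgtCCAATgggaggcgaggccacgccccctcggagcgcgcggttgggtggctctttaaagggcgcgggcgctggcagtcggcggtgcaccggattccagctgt
Ppat, chr5:76951529-76951828, minus strand: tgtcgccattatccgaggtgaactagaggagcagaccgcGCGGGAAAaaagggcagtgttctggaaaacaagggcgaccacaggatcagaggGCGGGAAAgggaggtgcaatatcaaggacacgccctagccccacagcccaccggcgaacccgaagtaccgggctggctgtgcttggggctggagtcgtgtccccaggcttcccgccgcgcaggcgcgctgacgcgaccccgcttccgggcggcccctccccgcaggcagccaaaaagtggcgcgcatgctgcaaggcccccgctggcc
Paics, chr5:76951052-76951351, plus strand: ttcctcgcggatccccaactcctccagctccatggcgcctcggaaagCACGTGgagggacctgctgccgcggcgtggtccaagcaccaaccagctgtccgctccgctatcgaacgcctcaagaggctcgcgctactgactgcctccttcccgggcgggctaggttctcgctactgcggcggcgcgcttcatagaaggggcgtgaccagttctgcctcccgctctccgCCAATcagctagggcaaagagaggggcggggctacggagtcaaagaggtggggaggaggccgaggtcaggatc
Rrm1 has CCAAT at positions -91 and -45 from the start, Rrm2 at -50 and Paics at -23, where CCAAT is the word bound by NF-Y. The E-box CACGTG, a word bound by MYC and other factors, is at -203 in Paics and at -61 in Tyms. The word GCGGGAAA in Ppat, at -211 and -158, is TTTCCCGC read from the other strand. TTTCCCGC, TTTGGCGC, TTTGCCGC and TTTCGCGC were the E2F words searched, on both strands, and none of them contains the other words. Among all 32851 RefSeq windows of this length, 2.26% held an E2F word, 7.15% held CACGTG and 37.4% held CCAAT, against 1, 2 and 3 of the 9 windows here. A match is a description of the sequence, not evidence of binding.

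Whether oral aGC changed these genes was asked first, within each FT. All 9 genes rose after aGC in KO FT mice and in WT FT mice, and in each FT every one of the 6 aGC libraries lay above every one of the 6 PBS libraries. Among all 15953 genes tested, 28.1% rose in KO FT mice and 30.9% in WT FT mice, and 12.6% and 17.9% were higher without overlap. Over the 9 genes the median log2 change was 1.12 in KO FT mice, against -0.031 over all genes, and 1.74 in WT FT mice, against -0.11 over all genes. The largest change was that of Rrm2 in WT FT mice, at 7.40-fold, and the smallest that of Paics in KO FT mice, at 1.71-fold. In bulk samples, more cells that express a gene and more RNA per cell cannot be told apart. Levels below are CPM with TMM scaling, and changes are log2 changes of aGC over PBS ± SE from edgeR's quasi-likelihood test, with p-values adjusted by Benjamini-Hochberg over all tested genes.

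Rrm1 encodes the large, catalytic subunit of ribonucleotide reductase. Rrm1 in KO FT mice stood at 156, 149 and 138 CPM in aGC females, against 77.8, 77.6 and 72.1 CPM in PBS females, and at 150.0, 139 and 138 CPM in aGC males, against 52.1, 59.4 and 65.1 CPM in PBS males. Rrm1 in WT FT mice stood at 171, 179 and 166 CPM in aGC females, against 97.3, 91.2 and 97.4 CPM in PBS females, and at 193, 198 and 201 CPM in aGC males, against 61.1, 66.7 and 61.3 CPM in PBS males. The WT FT aGC males were highest, and the PBS males of either FT were lowest. Rrm1 rose by 1.12 ± 0.048 in KO FT mice (adjusted p = 1.40e-15) and by 1.25 ± 0.047 in WT FT mice (adjusted p = 5.81e-17). Rrm2 encodes the small subunit with the tyrosyl radical, which is made anew around S phase. Rrm2 in KO FT mice stood at 48.4, 39.8 and 38.1 CPM in aGC females, against 32.1, 30.5 and 31.8 CPM in PBS females, and at 74.96, 82.4 and 60.8 CPM in aGC males, against 20.9, 25.2 and 26.2 CPM in PBS males. Rrm2 in WT FT mice stood at 106, 110.0 and 118 CPM in aGC females, against 38.9, 32.3 and 30.9 CPM in PBS females, and at 132, 153 and 143 CPM in aGC males, against 8.48, 8.81 and 8.05 CPM in PBS males. The 6 WT FT aGC libraries were the 6 highest and the 3 WT FT PBS males the 3 lowest of the 24, while the gap between aGC and PBS was small in KO FT females. Rrm2 rose by 1.00 ± 0.080 in KO FT mice (adjusted p = 1.49e-10) and by 2.89 ± 0.083 in WT FT mice (adjusted p = 4.10e-19). Averaged over the sexes, the estimates of the subunits thus lay close together in KO FT mice and apart in WT FT mice. In KO FT females Rrm1 rose by 0.96 ± 0.067 and Rrm2 by 0.41 ± 0.11. In KO FT males Rrm1 rose by 1.27 ± 0.068 and Rrm2 by 1.59 ± 0.11, so their order turned between the sexes. In WT FT mice Rrm2 rose more than Rrm1 in both sexes, by 1.70 against 0.85 in females and 4.08 against 1.65 in males. The difference between genes was not tested.

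Tyms encodes thymidylate synthase, which methylates dUMP to dTMP. Tyms in KO FT mice stood at 40.8, 34.2 and 37.2 CPM in aGC females, against 26.97, 29.9 and 26.9 CPM in PBS females, and at 43.3, 39.5 and 48.4 CPM in aGC males, against 13.7, 14.03 and 12.7 CPM in PBS males. Tyms in WT FT mice stood at 82.7, 75.7 and 75.9 CPM in aGC females, against 23.9, 23.3 and 24.4 CPM in PBS females, and at 79.5, 104 and 96.1 CPM in aGC males, against 14.2, 13.5 and 16.3 CPM in PBS males. The 6 WT FT aGC libraries were again the highest, and the PBS males of either FT the lowest. Tyms rose by 1.06 ± 0.072 in KO FT mice (adjusted p = 8.94e-12) and by 2.19 ± 0.071 in WT FT mice (adjusted p = 3.55e-18). Tk1 encodes the cytosolic thymidine kinase, which salvages thymidine and is best known from dividing cells. Tk1 in KO FT mice stood at 15.8, 22.7 and 21.01 CPM in aGC females, against 8.62, 8.29 and 8.05 CPM in PBS females, and at 28.9, 30.9 and 31.9 CPM in aGC males, against 7.36, 4.46 and 5.33 CPM in PBS males. Tk1 in WT FT mice stood at 43.02, 37.98 and 36.3 CPM in aGC females, against 9.74, 10.2 and 7.78 CPM in PBS females, and at 51.8, 53.2 and 47.9 CPM in aGC males, against 11.7, 10.97 and 10.1 CPM in PBS males. All PBS libraries lay under all aGC libraries, and among the aGC libraries the KO FT females were lowest. Tk1 rose by 1.86 ± 0.10 in KO FT mice (adjusted p = 2.81e-13) and by 2.15 ± 0.098 in WT FT mice (adjusted p = 2.71e-15). Dut encodes dUTPase, which hydrolyses dUTP to dUMP, the substrate of thymidylate synthase. Dut in KO FT mice stood at 88.8, 87.4 and 94.2 CPM in aGC females, against 54.2, 52.4 and 50.2 CPM in PBS females, and at 92.6, 98.4 and 111 CPM in aGC males, against 41.9, 39.9 and 34.7 CPM in PBS males. Dut in WT FT mice stood at 130.4, 129 and 139 CPM in aGC females, against 52.3, 49.98 and 54.5 CPM in PBS females, and at 178, 175 and 177 CPM in aGC males, against 50.7, 46.8 and 50.8 CPM in PBS males. Here too the WT FT aGC libraries were the 6 highest, and no PBS library reached an aGC library. Dut rose by 1.08 ± 0.050 in KO FT mice (adjusted p = 7.00e-15) and by 1.59 ± 0.049 in WT FT mice (adjusted p = 1.69e-18).

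**Figure D1:**
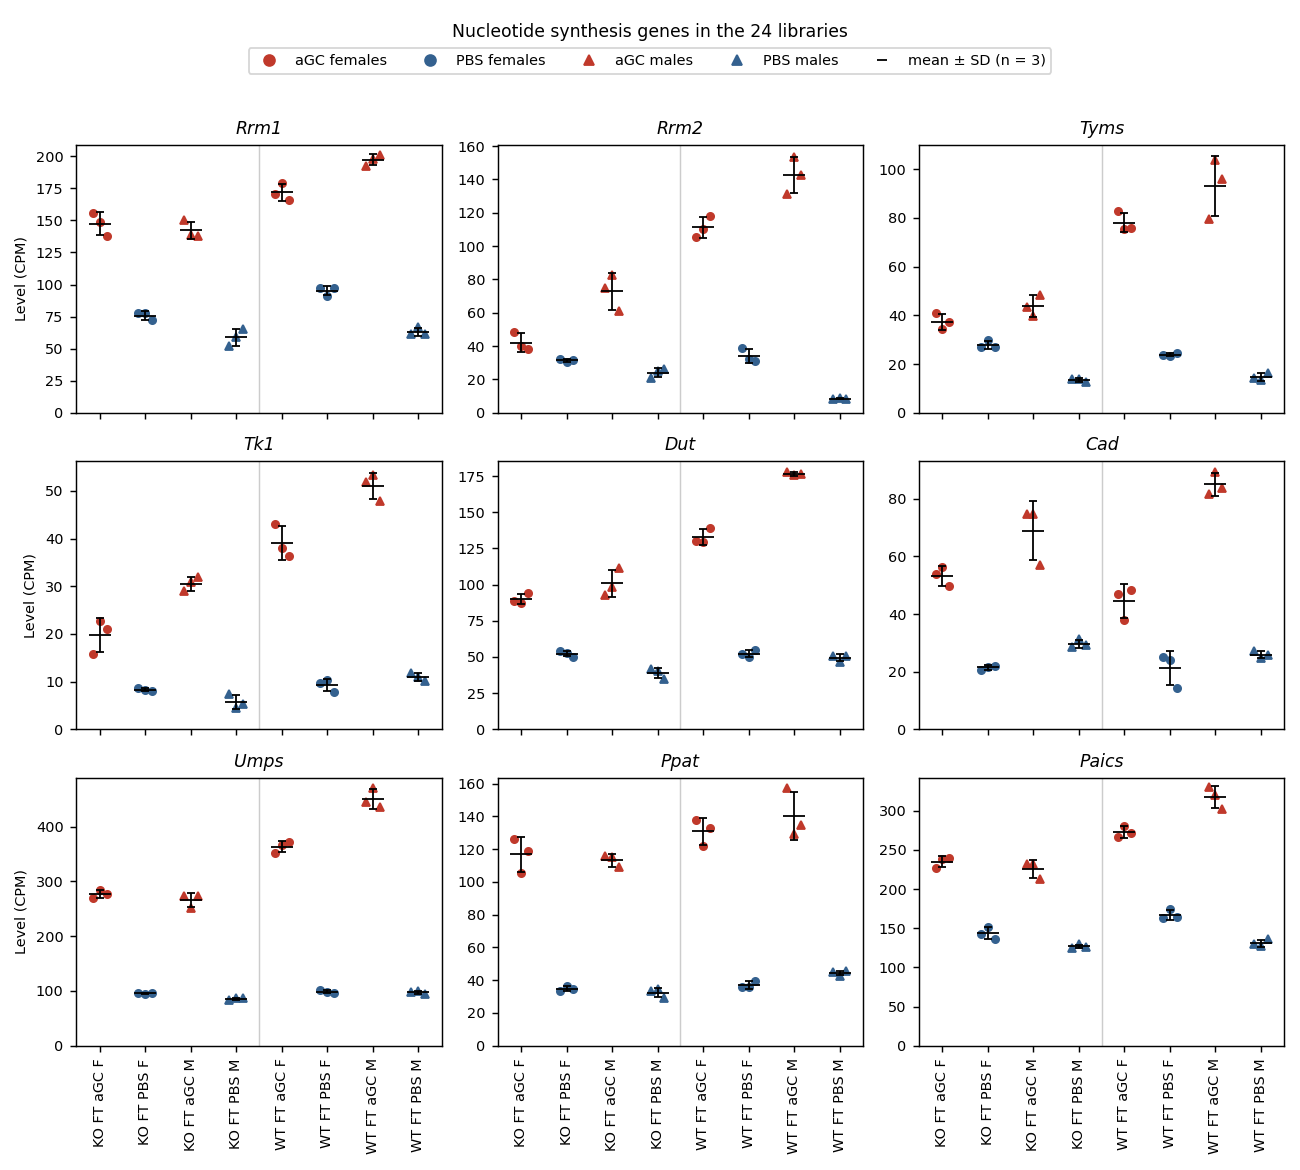
Level of each of the 9 genes (CPM, linear axis from 0) in the 24 libraries, 1 panel per gene, by FT, treatment and sex; points are libraries, and bars are the mean ± SD of 3. In each panel the aGC libraries of an FT lie above its PBS libraries, and for all genes but Cad and Ppat the WT FT aGC libraries lie above the KO FT aGC libraries.

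Cad encodes the enzyme that carries out the opening steps of pyrimidine synthesis, from glutamine to dihydroorotate. Cad in KO FT mice stood at 53.8, 56.4 and 49.7 CPM in aGC females, against 20.6, 21.8 and 21.99 CPM in PBS females, and at 74.8, 74.7 and 57.1 CPM in aGC males, against 28.6, 31.2 and 29.2 CPM in PBS males. Cad in WT FT mice stood at 47.1, 37.8 and 48.5 CPM in aGC females, against 25.00, 24.1 and 14.5 CPM in PBS females, and at 81.8, 89.3 and 83.9 CPM in aGC males, against 27.2, 24.8 and 25.6 CPM in PBS males. The aGC males of either FT were the highest, 1 WT FT PBS female library was lower than the other 2, and 1 KO FT aGC male library was lower than the other 2. Cad rose by 1.26 ± 0.098 in KO FT mice (adjusted p = 1.08e-10) and by 1.38 ± 0.098 in WT FT mice (adjusted p = 9.59e-12). Umps encodes UMP synthase, which completes the route to UMP. Umps in KO FT mice stood at 269, 284 and 277 CPM in aGC females, against 95.6, 94.02 and 96.9 CPM in PBS females, and at 273, 252 and 273 CPM in aGC males, against 82.7, 87.1 and 86.5 CPM in PBS males. Umps in WT FT mice stood at 352, 366 and 372 CPM in aGC females, against 102, 97.7 and 95.9 CPM in PBS females, and at 445, 469.6 and 436 CPM in aGC males, against 97.4, 101 and 93.8 CPM in PBS males. The PBS libraries of the 4 groups lay close together, and the aGC libraries formed separate ranges for KO FT and WT FT. Umps rose by 1.59 ± 0.033 in KO FT mice (adjusted p = 4.24e-21) and by 2.05 ± 0.033 in WT FT mice (adjusted p = 1.49e-23).

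Ppat encodes the amidophosphoribosyltransferase that commits ribose phosphate to purine synthesis. Ppat in KO FT mice stood at 126, 105 and 119 CPM in aGC females, against 33.4, 36.6 and 34.6 CPM in PBS females, and at 116, 115 and 109 CPM in aGC males, against 33.5, 34.6 and 29.2 CPM in PBS males. Ppat in WT FT mice stood at 138, 122 and 133 CPM in aGC females, against 35.7, 35.8 and 39.7 CPM in PBS females, and at 157, 129 and 135 CPM in aGC males, against 45.05, 42.7 and 45.4 CPM in PBS males. The aGC libraries of the 2 FTs overlapped, and all of them lay far above the PBS libraries. Ppat rose by 1.77 ± 0.059 in KO FT mice (adjusted p = 1.50e-17) and by 1.74 ± 0.057 in WT FT mice (adjusted p = 5.46e-18). Paics encodes a later enzyme of the same route, with carboxylase and SAICAR synthetase activities. Paics in KO FT mice stood at 227, 238 and 240.0 CPM in aGC females, against 143, 151 and 137 CPM in PBS females, and at 232, 231 and 213 CPM in aGC males, against 125, 129 and 126 CPM in PBS males. Paics in WT FT mice stood at 266, 281 and 272 CPM in aGC females, against 163, 174 and 164 CPM in PBS females, and at 330.4, 320.2 and 303 CPM in aGC males, against 130.1, 127 and 136 CPM in PBS males. The PBS females lay above the PBS males in either FT, and the aGC libraries of KO FT and WT FT formed separate ranges. Paics rose by 0.77 ± 0.036 in KO FT mice (adjusted p = 6.51e-15) and by 0.99 ± 0.035 in WT FT mice (adjusted p = 2.16e-17). The estimates of the divergent neighbours, whose promoter windows are printed above, were thus of unlike size, which was not tested between genes.

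Each of the 4 combinations of FT and sex gave the same count, with 9 of 9 genes higher after aGC and no overlap. The share of all genes that rose was 27.7% in KO FT females, 26.8% in KO FT males, 28.6% in females and 31.7% in males of WT FT, and the shares higher without overlap were 29.9%, 27.5%, 31.9% and 33.2% in the same order. Between the groups low in Cd8a, aGC males against PBS females, 9 of 9 rose again in KO FT mice, where 25.6% of genes rose, and in WT FT mice, where 28.2% did. Within females the aGC groups, and within males the PBS groups, are those high in Cd8a and in naive markers. All 9 genes rose in both sexes, and the part of these markers in the changes was not tested. In the comparison of the groups low in Cd8a, in which sex and treatment cannot be told apart, Rrm2 changed by 1.2 in KO FT mice and 2.06 in WT FT mice, and Umps by 1.48 and 2.19. The summed iNKT and B cell markers were lower after aGC, as given above, and their part in these changes was not tested. When the 3 libraries of a group were summed to 1 profile, which measures the spread between groups with 3 residual degrees of freedom, 9 of 9 genes rose in WT FT mice (edgeR, adjusted p = 0.00323 to 0.0407; 7.39% of all genes rose). In KO FT mice Tk1, Umps and Ppat rose in that fit (1.92% of all genes), and the other 6 had adjusted p = 0.0516 to 0.428. That fit has no term for sex by treatment, which then counts as spread.

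**Figure D2:**
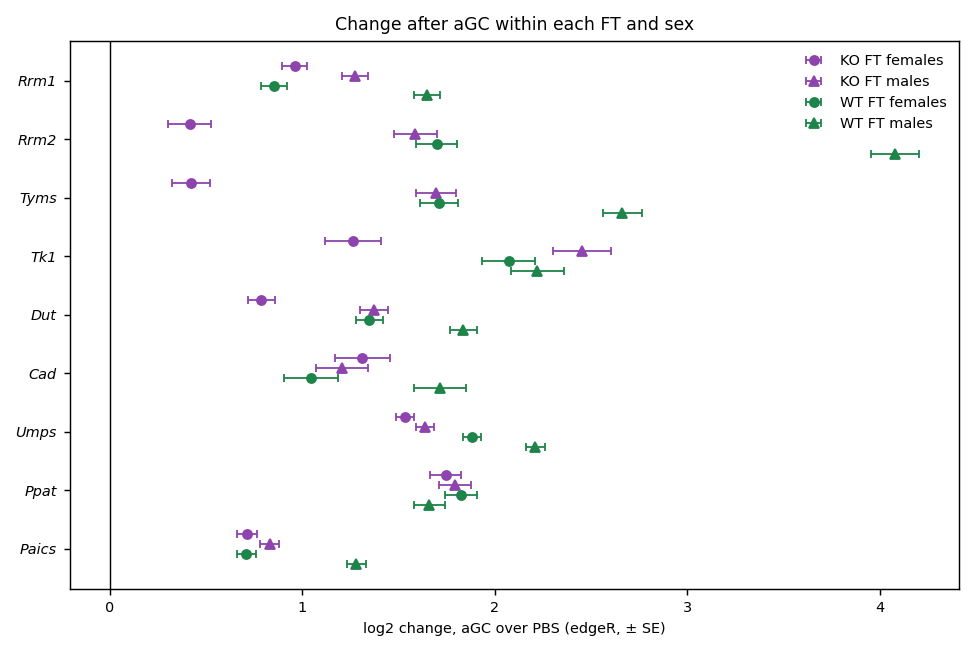
Log2 change of aGC over PBS (edgeR estimate ± SE) for each of the 9 genes within KO FT females, KO FT males, WT FT females and WT FT males. All 36 estimates lie above 0, from 0.41 for Rrm2 in KO FT females to 4.08 for Rrm2 in WT FT males.

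The next question was whether the aGC-treated cells differed by FT. After aGC, 8 of the 9 genes were lower in KO FT than in WT FT mice, where 26.5% of all genes were lower and 25.4% higher. For 7 of them every KO FT library lay under every WT FT library, against 9.39% of all genes. The median log2 change of KO FT over WT FT was -0.86 for the 5 deoxynucleotide genes and -0.30 for the 4 de novo genes, against 0.0014 over all genes. Rrm2 averaged 42.1 ± 5.53 CPM in KO FT aGC females and 111 ± 6.17 CPM in WT FT aGC females, and 72.7 ± 10.96 CPM in KO FT aGC males and 143 ± 10.98 CPM in WT FT aGC males (SD, n = 3 each). It was lower by a log2 change of -1.19 ± 0.076 (adjusted p = 2.05e-11). Tyms was the next, with -1.08 ± 0.068 (adjusted p = 1.76e-11), and Tk1 changed by -0.86 ± 0.094 (adjusted p = 7.64e-08). Dut changed by -0.68 ± 0.048 (adjusted p = 8.67e-11) and Rrm1, the other reductase subunit, by -0.35 ± 0.046 (adjusted p = 1.17e-06). All 5 deoxynucleotide genes were thus lower in KO FT mice after aGC, Rrm1 by the least. Of the de novo genes, Umps changed by -0.58 ± 0.032 (adjusted p = 2.39e-12), Paics by -0.35 ± 0.035 (adjusted p = 1.53e-08) and Ppat by -0.24 ± 0.055 (adjusted p = 0.000919), the last with overlapping libraries. Cad did not pass, at -0.022 ± 0.095 (adjusted p = 0.873).

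Within females 7 of 9 genes were lower in KO FT than in WT FT mice after aGC, against 24.4% of all genes, and the same 7 were lower without overlap, against 29.4%. The summed Cd8a and Cd8b1 level there was 494 to 523 CPM in KO FT and 631 to 639.8 CPM in WT FT females, and its part in the differences was not tested. In males, where the compared groups are both low in Cd8a, 8 of 9 were lower, against 22.4% of all genes. All 9 were lower without overlap, against 25.0%. Other markers differed between these males. Zbtb16 stood at 60.8 to 76.0 CPM in KO FT and 38.05 to 42.0 CPM in WT FT aGC males. Of the 9 naive markers 5 were higher and 1 lower in KO FT, against 24.2% and 22.4% of all genes. The part of these markers in the differences was not tested. Rrm2 changed by -1.41 in females and -0.97 in males, Tyms by -1.06 and -1.09, and Umps by -0.39 and -0.76. Cad was the exception. In aGC females it stood at 53.3 ± 3.41 CPM in KO FT mice and 44.5 ± 5.80 CPM in WT FT mice, and in aGC males at 68.9 ± 10.2 CPM in KO FT mice and 84.99 ± 3.87 CPM in WT FT mice (SD, n = 3 each). Its log2 change was 0.26 ± 0.14 in females (adjusted p = 0.125) and -0.31 ± 0.13 in males (adjusted p = 0.0597), so neither passed, although the libraries did not overlap in either sex (22.2% of all genes were higher without overlap in females). Without KO FT aGC male replicate 1 or replicate 2 the male value passed, at -0.38 and -0.38 (adjusted p = 0.0386 and 0.0396). Ppat did not pass in females, at -0.17 ± 0.078 (adjusted p = 0.0911), and passed without KO FT aGC female replicate 1, at -0.22 (adjusted p = 0.0443). With 1 profile per group, 0 of 9 genes and 0 of all 15953 genes passed for KO FT against WT FT after aGC (edgeR; 1306 genes at an unadjusted p under 0.05), the estimates stayed near those given, such as -1.17 for Rrm2, and the adjusted p was 0.598 for Tyms. The differences thus exceeded the spread between libraries of a group and did not pass in the fit that measures the spread between groups.

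After PBS the same contrast gave smaller values for most of the genes. Rrm2 was higher in KO FT than in WT FT mice and 6 genes were lower, where 14.6% of all genes were higher and 14.8% lower, and all 9 overlapped when the sexes were pooled. Rrm2 changed by 0.70 ± 0.084 (adjusted p = 2.66e-06). It averaged 24.1 ± 2.81 CPM in KO FT PBS males and 8.45 ± 0.383 CPM in WT FT PBS males, and 31.5 ± 0.886 CPM in KO FT PBS females and 34.04 ± 4.23 CPM in WT FT PBS females (SD, n = 3 each). The rise was seen in males, with a log2 change of 1.52 ± 0.13 (adjusted p = 7.71e-09), while females had -0.12 ± 0.11 (adjusted p = 0.435). PBS males are the groups high in Cd8a, with a summed Cd8a and Cd8b1 level of 393 to 396 CPM in KO FT and 854 to 863 CPM in WT FT, and its part in the difference was not tested. The 6 lower genes were Tk1, at -0.57 ± 0.11 (adjusted p = 0.000376), Ppat, at -0.27 ± 0.059, Rrm1, at -0.22 ± 0.048, Dut, at -0.17 ± 0.050, Paics, at -0.13 ± 0.035, and Umps, at -0.12 ± 0.033, with adjusted p up to 0.0125. Tyms and Cad did not pass, at 0.054 ± 0.073 and 0.099 ± 0.10. In females Rrm1 and Paics were the only 2 of 9 that passed, both lower, against 14.9% of all genes. In males Tk1, Dut, Umps and Ppat were lower and Rrm2 higher, against 21.4% and 21.1% of all genes. With 1 profile per group, 0 of 9 and 0 of all genes passed (edgeR; 255 at an unadjusted p under 0.05).

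**Figure D3:**
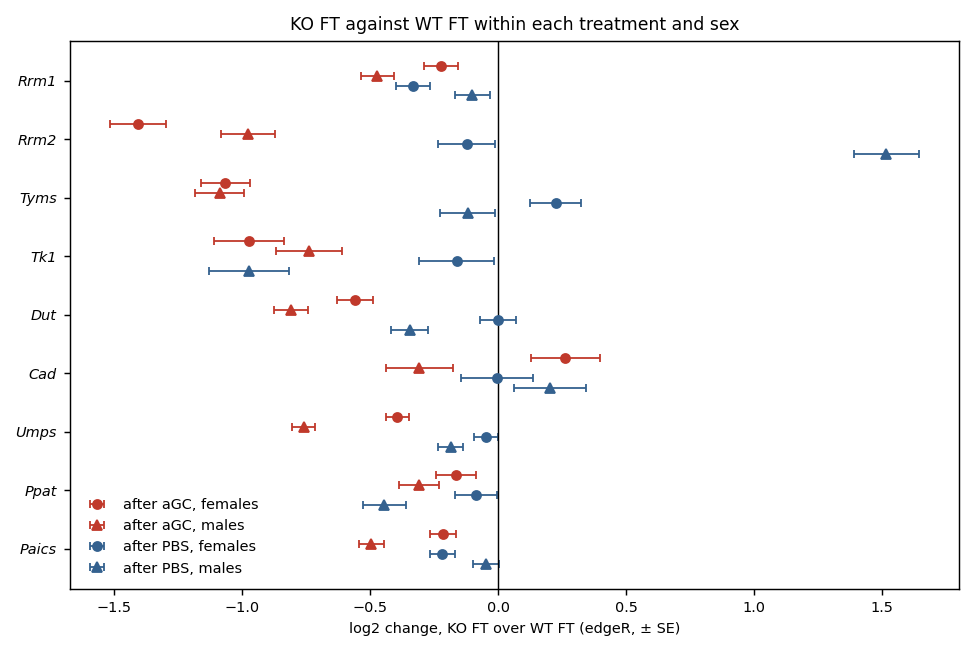
Log2 change of KO FT over WT FT (edgeR estimate ± SE) for each of the 9 genes, after aGC and after PBS, in females and males. After aGC the points lie below 0 except that of Cad in females, and after PBS the point of Rrm2 in males stands apart at 1.52.

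The size of the response to aGC was then compared between the FTs, as the log2 change in KO FT minus that in WT FT mice. Averaged over the sexes, Rrm2, Tyms, Dut, Umps and Paics had a smaller response in KO FT mice. That was 5 of 9 genes, where 22.6% of all genes had a lower value. The difference was -1.89 ± 0.11 for Rrm2 (adjusted p = 3.89e-11), -1.13 ± 0.10 for Tyms (adjusted p = 1.05e-08) and -0.51 ± 0.069 for Dut (adjusted p = 3.18e-06). For Umps it was -0.46 ± 0.046 (adjusted p = 5.40e-08) and for Paics -0.22 ± 0.050 (adjusted p = 0.000841). The difference was not tested within a sex. The rises of Rrm2, Tyms, Dut and Umps were smaller in KO FT than in WT FT mice in both sexes. Paics rose by 0.71 in females of either FT, and by 0.83 in KO FT males and 1.28 in WT FT males. The difference did not pass for Ppat, at 0.028 ± 0.081 (adjusted p = 0.818), or for Cad, at -0.12 ± 0.14 (adjusted p = 0.508). Tk1, at -0.29 ± 0.14 (adjusted p = 0.106), passed without KO FT PBS male replicate 2, at -0.39 (adjusted p = 0.0269). Rrm1, at -0.13 ± 0.066 (adjusted p = 0.11), passed without KO FT PBS male replicate 1, at -0.17 (adjusted p = 0.0244). The direction for these genes differed by sex. In KO FT against WT FT females Tk1 rose by 1.26 against 2.07, Rrm1 by 0.96 against 0.85 and Cad by 1.31 against 1.04. In males Tk1 rose by 2.45 against 2.22, Rrm1 by 1.27 against 1.65 and Cad by 1.21 against 1.71. Between the groups low in Cd8a alone, chosen after seeing the data, 6 of 9 responses were smaller in KO FT mice, where 20.7% of all genes had a lower value. There Rrm2 differed by -0.85, less than in the pooled contrast, Tyms by -1.31, Dut by -0.81, Umps by -0.71 and Tk1 by -0.58 (edgeR, adjusted p = 0.0208). With 1 profile per group no gene passed for this difference (0 of 15953; edgeR, 628 at an unadjusted p under 0.05), and Rrm2 stood at -1.59 (adjusted p = 0.935).

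The response also differed between the sexes. In WT FT mice 7 of 9 genes responded more in males than in females, all but Tk1 and Ppat, where 24.2% of all genes had a higher value. Rrm2 differed by 2.38 ± 0.16 (adjusted p = 3.97e-11), Tyms by 0.95 ± 0.14 (adjusted p = 5.44e-06) and Rrm1 by 0.79 ± 0.093 (adjusted p = 2.55e-07). In KO FT mice the 5 deoxynucleotide genes responded more in males and the 4 de novo genes did not pass, where 25.3% of all genes had a higher value. There Tyms differed by 1.27 ± 0.14 (adjusted p = 2.32e-07), Tk1 by 1.19 ± 0.21 (adjusted p = 6.95e-05) and Rrm2 by 1.17 ± 0.16 (adjusted p = 2.93e-06). Males and females also differ in which treatment group is high in Cd8a and in naive markers, of which 9 of 9 in KO FT mice and 9 of 9 in WT FT mice had a lower value in males (median -3.02 and -2.54). Sex and these markers cannot be told apart in these differences.

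Per kilobase of transcript, so that genes can be compared with each other, Paics and Umps were the highest in all 8 groups, with Dut after them and within the spread of Umps in PBS females of either FT. In KO FT aGC females Paics stood at 94.7 ± 2.89 CPM per kb and Umps at 79.4 ± 2.08 CPM per kb, followed by Dut, Rrm1, Ppat, Rrm2, Tk1, Tyms and Cad. In WT FT aGC males Umps, at 129 ± 5.01 CPM per kb, and Paics, at 128 ± 5.62 CPM per kb, did not differ beyond their spread, nor did Tk1, at 35.4 ± 1.92, and Ppat, at 35.2 ± 3.74 (SD, n = 3 each). The subunits of the reductase changed places. Rrm2 stood at 65.00 CPM per kb in WT FT aGC males, above Rrm1 at 49.4, and at 3.85 CPM per kb in WT FT PBS males, under Rrm1 at 15.8. Cad was the lowest in all groups except KO FT PBS males, where Cad, Tyms and Tk1 lay within their spread, at 4.16, 4.26 and 3.97 CPM per kb. In WT FT PBS males Cad, at 3.63, did not differ from Rrm2 beyond their spread. Neighbours whose means differed by no more than their summed SDs also included Tk1 and Tyms in aGC females of either FT, Paics and Umps in WT FT aGC females, Rrm1 with Rrm2 and Rrm2 with Ppat in KO FT aGC males, Ppat and Tyms in WT FT aGC males, and Tyms and Ppat in KO FT PBS females. The length used is that of the principal transcript in the annotation.

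Other genes of nucleotide metabolism were described from lists of the pathway's steps. Among all genes 28.1% rose and 30.1% fell in KO FT mice, and 30.9% rose and 37.5% fell in WT FT mice. Of 13 other genes of purine synthesis, 10 rose and 1 fell after aGC in KO FT mice, and 10 rose and 1 fell in WT FT mice, with median changes of 0.68 and 0.98. Impdh2, the IMP dehydrogenase of the guanine branch, rose by 1.17 ± 0.032 in KO FT mice and 1.61 ± 0.032 in WT FT mice. Gart, a multifunctional enzyme of the main route, rose by 0.93 ± 0.034 and 1.36 ± 0.034, Adsl, adenylosuccinate lyase, by 0.78 ± 0.036 and 1.25 ± 0.036, and Gmps, GMP synthetase, by 0.80 ± 0.043 and 1.04 ± 0.043. Prpsap1 and Prpsap2, associated proteins of PRPP synthetase, had values of -0.044 and -0.048 in KO FT mice and 0.018 and 0.065 in WT FT mice and did not pass. The gene that fell was Adssl1, an adenylosuccinate synthase of muscle, named after its values were seen, at -0.71 in KO FT mice and -0.68 in WT FT mice.

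Of 9 other pyrimidine genes 6 rose and 3 fell in KO FT mice, and 6 rose and 2 fell in WT FT mice (median 0.42 and 0.91). Ctps, CTP synthase, rose by 1.78 ± 0.054 in KO FT mice and 1.88 ± 0.053 in WT FT mice, the nucleoside diphosphate kinases Nme2 by 1.12 ± 0.060 and 1.70 ± 0.060 and Nme1 by 0.88 ± 0.059 and 1.38 ± 0.060, and Dtymk, thymidylate kinase, by 0.36 ± 0.044 and 0.84 ± 0.043. The second CTP synthase gene, Ctps2, went the other way, at -0.61 ± 0.044 in KO FT mice and -0.71 ± 0.044 in WT FT mice, as did the mitochondrial Cmpk2, at -0.69 ± 0.095 and -0.67 ± 0.095, both named after their values were seen. Cmpk1, UMP/CMP kinase, fell in KO FT mice, at -0.19 ± 0.067, and stood at -0.029 ± 0.067 in WT FT mice, where it did not pass. Of 7 other deoxynucleotide genes 2 rose and 4 fell in each FT (median -0.61 in KO FT and -0.36 in WT FT mice). The count that rose was near the shares of all genes that rose, 28.1% in KO FT and 30.9% in WT FT mice. Those that rose clear unwanted nucleotides, Dctpp1, dCTP pyrophosphatase, by 1.15 ± 0.089 in KO FT mice and 2.14 ± 0.088 in WT FT mice, and Nudt1, which hydrolyses oxidised dGTP, by 0.34 ± 0.080 and 1.02 ± 0.078. Tk2 and Dguok, the mitochondrial deoxynucleoside kinases, fell by 0.81 and 0.93 on the log2 scale in KO FT mice and by 0.92 and 0.91 in WT FT mice. The p53-induced small subunit Rrm2b, named after its values were seen, also fell, at -0.61 ± 0.13 in KO FT mice and -0.86 ± 0.14 in WT FT mice, where Rrm2 rose. Dck, deoxycytidine kinase, also named after its values were seen, fell in WT FT mice, at -0.36 ± 0.070, and did not pass in KO FT mice, at 0.13 ± 0.071. Samhd1, which degrades dNTPs, fell in KO FT mice, at -0.64 ± 0.049, and did not pass in WT FT mice, at -0.065 ± 0.048 (adjusted p = 0.237). It ranged from 179.7 to 264 CPM in KO FT aGC libraries, against 256 to 444 CPM in KO FT PBS libraries, and from 179 to 376 CPM in WT FT aGC libraries, against 265 to 291 CPM in WT FT PBS libraries.

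Of 8 salvage and transport genes 6 rose and 1 fell in each FT (median 0.73 in KO FT and 1.26 in WT FT mice). Uck2, uridine-cytidine kinase, rose by 1.68 ± 0.069 in KO FT mice and 2.38 ± 0.069 in WT FT mice, the equilibrative transporter Slc29a1 by 0.90 ± 0.047 and 1.5 ± 0.047, adenosine kinase Adk by 0.85 ± 0.047 and 1.45 ± 0.046, and Aprt by 0.61 ± 0.053 and 1.06 ± 0.052. Uck1 did not pass, at -0.11 and 0.046, and the gene that fell was Uckl1, named after its values were seen, at -0.47 and -0.48. The folate and serine supply, from which Tyms and the purine route draw methylene and formyl groups, rose in nearly all tested genes. Of its 10 tested genes 10 rose in KO FT mice, and 9 rose and 1 fell in WT FT mice (median 1.21 and 1.47). Shmt1, cytosolic serine hydroxymethyltransferase, rose by 2.85 ± 0.055 in KO FT mice and 3.66 ± 0.055 in WT FT mice, its mitochondrial counterpart Shmt2 by 1.48 ± 0.051 and 1.88 ± 0.052, and the serine synthesis genes Psat1 by 1.23 ± 0.043 and 1.71 ± 0.043 and Phgdh by 1.09 ± 0.037 and 1.35 ± 0.037. The exception was Aldh1l1, at 2.04 ± 0.47 in KO FT mice and -2.44 ± 0.49 in WT FT mice, named after its values were seen, a formyltetrahydrofolate dehydrogenase whose level was at most 4.66 CPM in any library. Breakdown genes did not share a direction. Of 15 tested, 5 rose and 5 fell in KO FT mice, and 6 rose and 3 fell in WT FT mice (median 0.019 and 0.13). Ampd1, AMP deaminase, fell by 2.18 on the log2 scale in KO FT mice and by 2.04 in WT FT mice, and Nt5e, the ecto-nucleotidase CD73, by 0.36 and 0.57. Pnp, purine nucleoside phosphorylase, rose by 0.11 ± 0.046 and 0.57 ± 0.045, and Ada, adenosine deaminase, by 0.25 ± 0.057 and 0.70 ± 0.056. Tymp did not pass, at -0.25 and -0.018, and Nt5c3b fell in KO FT mice, at -0.25, and did not pass in WT FT mice, at 0.0038. The shares of all genes that rose were 28.1% in KO FT mice and 30.9% in WT FT mice, and the shares that fell were 30.1% and 37.5%.

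**Figure D4:**
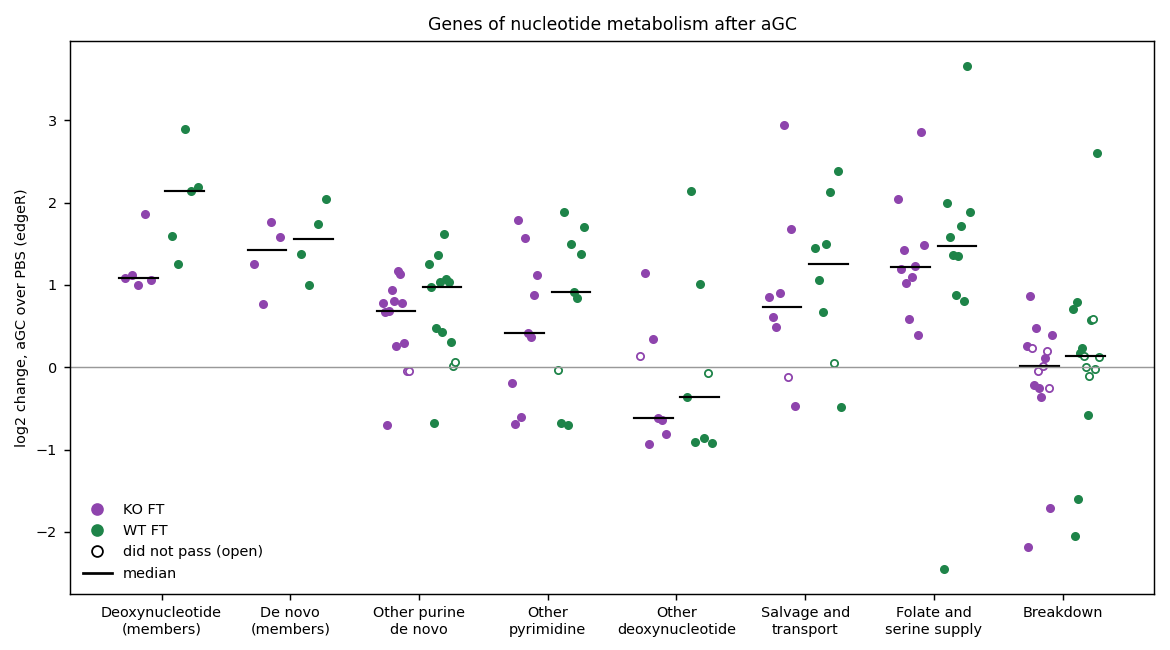
Log2 change of aGC over PBS (edgeR) for each gene of nucleotide metabolism tested, by list, in KO FT and WT FT mice; open points did not pass, and bars are medians. The 9 genes and the folate and serine list lie above 0 apart from Aldh1l1 in WT FT mice, while breakdown genes and other deoxynucleotide genes lie on either side of it.

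Between the FTs after aGC, most genes of 4 of the 6 wider lists were lower in KO FT mice, where 26.5% of all genes were lower and 25.4% higher. Lower in KO FT than in WT FT were 11 of 13 other purine genes (median -0.33), 6 of 9 other pyrimidine genes (-0.39), 7 of 8 salvage genes (-0.48) and 9 of 10 folate and serine genes (-0.50), where 1, 2, 0 and 1 were higher. Of the 7 other deoxynucleotide genes 3 were lower and 2 higher (median 0.033), and of the 15 breakdown genes 6 were lower and 2 higher (median -0.18), nearer to the shares over all genes. Impdh2 changed by -0.52 ± 0.031, Uck2 by -0.61 ± 0.065, Shmt1 by -0.73 ± 0.048 and Nme2 by -0.52 ± 0.058. Each had KO FT libraries under WT FT libraries without overlap, against 9.39% of all genes. After PBS the first 4 lists had 2, 2, 1 and 4 genes lower and 1, 1, 0 and 0 higher, where 14.8% of all genes were lower and 14.6% higher.

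Among 13 regulators and cell cycle genes, 8 rose and 1 fell after aGC in KO FT mice, and 9 rose and 2 fell in WT FT mice, where 28.1% and 30.9% of all genes rose. Within females 8 rose in KO FT and 7 in WT FT mice (median 0.79 and 0.78), against 27.7% and 28.6% of all genes. Within males 10 and 11 rose (median 1.40 and 1.86), against 26.8% and 31.7%. Sex and the split in Cd8a cannot be told apart there. The values of single genes below average the sexes. Myc, the factor named above, rose by 1.76 ± 0.053 in KO FT mice and 2.12 ± 0.053 in WT FT mice. It ranged from 475 to 699 CPM in KO FT aGC libraries, against 164 to 187 CPM in KO FT PBS libraries, and from 753 to 856 CPM in WT FT aGC libraries, against 151 to 243 CPM in WT FT PBS libraries. E2f1 rose by 1.48 ± 0.075 in KO FT mice and 2.48 ± 0.075 in WT FT mice, and E2f3 by 1.10 ± 0.23 and 1.07 ± 0.23. Of the repressor-type factors, E2f7 rose in KO FT mice, at 1.36 ± 0.37, and did not pass in WT FT mice, at 0.79 ± 0.35, and E2f8 rose in WT FT mice, at 2.88 ± 0.53, and did not pass in KO FT mice, at 0.67 ± 0.64, with at most 2.72 CPM in any library. E2f2 did not pass, at 0.50 and -0.16. Rb1, which holds E2F factors in check, fell by 0.87 on the log2 scale in KO FT mice and by 1.75 in WT FT mice. Mycn fell in WT FT mice, at -2.89 ± 0.78, and stood at -0.11 ± 0.40 in KO FT mice, with at most 3.15 CPM in any library and 0 counts in WT FT aGC females, so its fitted change is no measure of size.

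Mcm2, a subunit of the replicative helicase, rose by 1.38 ± 0.035 in KO FT mice and 2.21 ± 0.035 in WT FT mice, and Pcna, the sliding clamp, by 0.84 ± 0.042 and 1.43 ± 0.042. Of the genes of G2 and mitosis, Cdk1 rose by 1.54 ± 0.17 in KO FT mice and 3.29 ± 0.17 in WT FT mice and Ccnb1, cyclin B1, by 1.43 ± 0.13 and 1.30 ± 0.11. Mki67, the proliferation antigen Ki-67, rose by 1.03 ± 0.22 in WT FT mice and did not pass in KO FT mice, at 0.37 ± 0.23 (adjusted p = 0.174). Its level was low, at 1.11 to 6.43 CPM in KO FT aGC libraries, against 1.33 to 3.47 CPM in KO FT PBS libraries, and 2.57 to 8.05 CPM in WT FT aGC libraries, against 1.88 to 3.39 CPM in WT FT PBS libraries. The aGC and PBS libraries of Mki67 overlapped in either FT, unlike those of the 9 genes. After aGC, 8 of the 13 were lower and 2 higher in KO FT than in WT FT mice, against 26.5% and 25.4% of all genes. Lower were Myc, at -0.45 ± 0.051, E2f1, at -0.76 ± 0.070, Mcm2, at -0.60 ± 0.034, Pcna, at -0.54 ± 0.041, Cdk1, at -1.20 ± 0.15, and Ccnb1, at -1.15 ± 0.11. Each of these was lower without overlap, against 9.39% of all genes. E2f8, at -1.68 ± 0.49, and Mki67, at -0.68 ± 0.22, were lower with overlap. Rb1 was higher, at 0.61 ± 0.090, as was Mycn, against 0 counts in WT FT aGC females. After PBS 3 of the 13 were higher and 2 lower in KO FT mice, against 14.6% and 14.8% of all genes. The response to aGC had a lower value in KO FT mice for 6 of the 13 and a higher value for 2, against 22.6% and 21.9%. A lower level after aGC was thus not always a smaller response, as the rise of Ccnb1 was 1.43 in KO FT and 1.30 in WT FT mice.

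**Figure D5:**
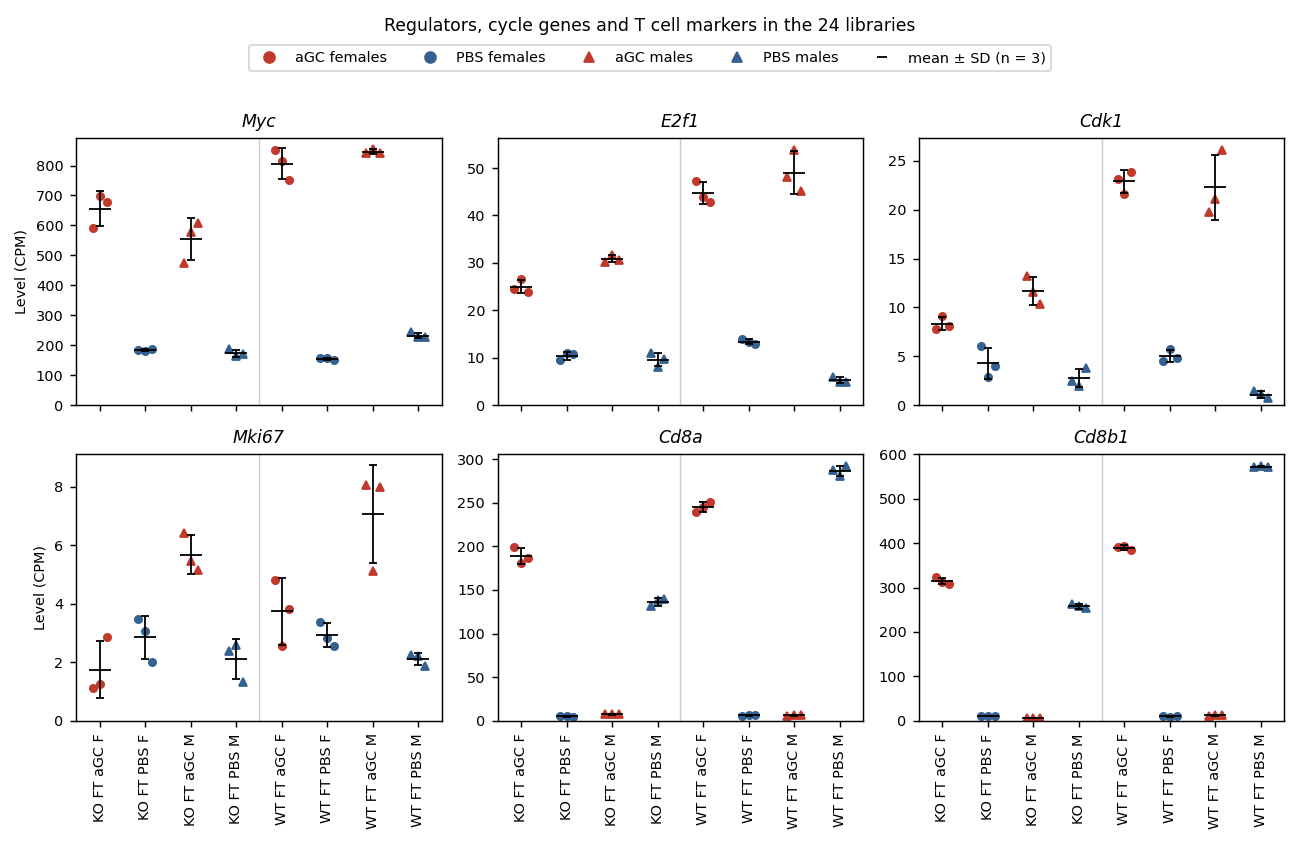
Levels (CPM, linear axis from 0) of Myc, E2f1, Cdk1, Mki67, Cd8a and Cd8b1 in the 24 libraries by FT, treatment and sex; points are libraries, and bars are the mean ± SD of 3. Myc, E2f1 and Cdk1 separate aGC from PBS libraries in each FT, whereas Cd8a and Cd8b1 are high in aGC females and PBS males.

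Over the 8 group means, which share their libraries with the tests above, the 9 genes were positively correlated. All 9 rose after aGC in each FT and sex, so a high r between them is not a separate result. Pearson's r of mean log2 CPM between 2 of them was lowest for Rrm2 with Cad, at 0.731, and highest for Rrm1 with Paics, at 0.994. Rrm1 and Rrm2, which form 1 enzyme, had r = 0.894, and the divergent pair Ppat and Paics r = 0.944. Among other genes with a mean of at least 10 CPM, those most like the mean pattern of the 5 deoxynucleotide genes were Rfc4 (r = 0.997), a subunit of the clamp loader, Pcna (0.996), Psat1 (0.996), Eif4e (0.995), the cap-binding factor, and Slc25a5 (0.992), an ADP/ATP carrier. Those most like the 4 de novo genes were Npm1 (r = 0.997), nucleophosmin, Gcsh (0.996), of the glycine cleavage system, the nucleolar Gnl3 (0.996), Odc1 (0.995), ornithine decarboxylase, and Tars (0.995), threonyl-tRNA synthetase. Rfc4 averaged 77.8 CPM in aGC libraries and 25.5 CPM in PBS libraries, and Npm1 991 and 243 CPM. These values rank genes by pattern over 8 points and carry no test.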

How the data were processed

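RNA libraries of iNKT cells were prepared from total RNA with the Nextera XT kit, per the labels' protocols, and such libraries do not keep strand. The deposited table holds expected counts per Ensembl gene, written as whole numbers. The authors estimated them with kallisto on GRCm38/mm10, per the submitters' processing notes, and the kallisto version is not given in the sources used here. Counts estimated this way share reads between similar transcripts. Symbols, positions and transcripts came from GENCODE M21, which matched 55154 of 55335 genes and left 181 without a symbol, and promoter sequences from RefSeq (GRCm38.p6).

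The counts were rounded to whole numbers before the fit, which leaves values already whole as they are. The fit, in R 4.3.3 with edgeR 4.0.16, used quasi-likelihood tests with TMM scaling on 15953 genes kept by filterByExpr (minimum count 10, minimum total 15). All 24 libraries entered with 8 group means, leaving 16 residual degrees of freedom. Comparisons within an FT or a treatment averaged the sexes equally. P-values were adjusted by Benjamini-Hochberg over all tested genes with a threshold of 0.05, and the SE is the absolute log2 change over the square root of F. CPM use TMM-scaled library sizes. Replicate libraries differed by more than sampling noise in all 24 pairs (chi-square per degree of freedom 4.11 to 16.4). That cannot show whether they are from separate mice. Each library was counted as 1. The fit was tested on simulated data.

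The alternatives were RLE scaling, DESeq2 1.42.0, limma-voom (3.58.1), no filter, a replicate block, 1 summed profile per group, each library left out, and aGC males against PBS females. The 9 genes, the lists and the tests were chosen with earlier results of these data known. Named beside the 9 genes are, per list, up to 4 genes with the lowest adjusted p for aGC against PBS in WT FT and up to 2 with the highest that did not pass, all 13 regulators, and the 5 genes of at least 10 CPM most like each member group. Some marker genes are not reported here. Sequence was analysed with Python 3.11.15.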

Additional observations from a re-analysis of the deposited data

Results flagged for a closer look

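Averaged over the sexes, the response to aGC differed between the FTs, by the test of the difference itself, for 5 of the 9 genes. Of all genes, 22.6% had a lower response in KO FT mice. In KO FT minus WT FT mice the log2 response differed by -1.89 for Rrm2, -1.13 for Tyms, -0.51 for Dut, -0.46 for Umps and -0.22 for Paics. Paics rose by 0.71 in females of either FT, and by 0.83 in KO FT males and 1.28 in WT FT males. With 1 profile per group 0 of 9 and 0 of 15953 genes passed (edgeR, 628 at an unadjusted p under 0.05), and between the groups low in Cd8a Rrm2 differed by -0.85.

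The response also differed between males and females, where 25.3% of all genes in KO FT mice and 24.2% in WT FT mice had a higher value in males. In KO FT mice the male response minus the female response was 0.32 for Rrm1, 1.17 for Rrm2, 1.27 for Tyms, 1.19 for Tk1 and 0.59 for Dut. In WT FT mice it was 0.79 for Rrm1, 2.38 for Rrm2, 0.95 for Tyms, 0.49 for Dut, 0.67 for Cad, 0.33 for Umps and 0.57 for Paics. The aGC females and PBS males are the groups high in Cd8a and in naive T cell markers, and the part of this in the differences was not tested.

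For Cad after aGC, the libraries of KO FT and WT FT lay apart in opposite directions in the sexes. The log2 change of KO FT over WT FT was 0.26 in females (edgeR, adjusted p = 0.125) and -0.31 in males (adjusted p = 0.0597), neither of which passed. Without overlap, 22.2% of all genes were higher in females and 25.0% lower in males, and for Cad the difference between the sexes was not tested.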

How the results depend on the processing

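Of the 135 values of the 9 genes over the 15 comparisons, limma-voom kept 134 on their side of the threshold and in their direction, RLE scaling 133, DESeq2 133 and no filter 127. With no filter the call was lost for Umps in KO FT against WT FT after PBS (edgeR, adjusted p = 0.0614). It was also lost for Rrm1 and Paics after aGC in females (0.0784 and 0.063) and for the response difference of Paics (0.0894). The cause of these losses was not tested. With no filter 1 of the 9 genes was higher in KO FT than in WT FT females after aGC, Cad, at 0.30 (adjusted p = 0.0259), against 0 with the filter, and the cause was not tested. Cad after aGC in males passed with RLE scaling (adjusted p = 0.0422), DESeq2 (0.0373), limma-voom (0.0171) and no filter (0.033). Its value near 0 in PBS females turned sign with RLE scaling (0.012), no filter (0.00207) and DESeq2 (0.019), and after aGC with no filter (0.011).

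Replicate numbers showed no general pairing of the libraries. Over 84 pairs with the same number the median correlation of deviations was -0.0126, against 0.0025 in other pairs. The values ran from -0.23 to 0.44, and 12 exceeded 0.1. Whether the highest of them reflect a shared step was not tested. The replicate block changed no call, and turned the sign of Cad in PBS females (0.013).

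With 1 profile per group 1618 genes passed for aGC in WT FT mice and 331 in KO FT mice, with 9 and 3 of the 9 genes higher. For KO FT against WT FT after aGC, after PBS and in the response, 0 genes and 0 of the 9 passed with edgeR (1306, 255 and 628 genes at an unadjusted p under 0.05). Fewer profiles and a wider spread enter that fit. Between the groups low in Cd8a the response difference of Ppat turned to -0.22 (adjusted p = 0.12), and the cause was not tested.

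Leaving out each library in turn kept 1277 values in their direction and on their side of the threshold, with 5 calls gained, as given above, and none lost. The range crossed 0 for values that did not pass: Cad in KO FT against WT FT after PBS (-0.00058 to 0.17), in PBS females (-0.20 to 0.14) and after aGC (-0.078 to 0.037), Dut in PBS females (-0.029 to 0.031), the response difference of Ppat (-0.0070 to 0.073), and the difference between the sexes in KO FT mice of Cad (-0.19 to 0.022) and Ppat (-0.036 to 0.11). All 9 genes rose after aGC under each omission in both FTs.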

Other observations

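Markers of other cells were also summed. The 5 markers of natural killer and innate lymphoid cells gave 219 to 389.7 CPM in aGC libraries and 334 to 520.2 CPM in PBS libraries, some of which iNKT cells express too. Klrb1c, the NK1.1 antigen, made up most of the sum and was at 176 to 359.9 CPM in aGC and 324 to 518 CPM in PBS libraries. The lower sum after aGC was not shared by the list, of which 4 of 5 rose and 1 fell in KO FT mice, and 2 rose and 1 fell in WT FT mice. Eomes, a T-box factor, was at 24.97 to 46.97 CPM in aGC and 1.06 to 10.6 CPM in PBS libraries. Klrb1c and Eomes were named after their values were seen. The 6 dendritic cell markers gave 8.13 to 20.3 CPM and the 4 plasma cell markers 10.2 to 44.5 CPM over the 24 libraries.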
